A study of Mus musculus with 8 samples.

Results

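The genes described here place, keep and remove methyl groups on cytosine in DNA, or supply a substrate for their removal. They are the TET dioxygenases Tet1, Tet2 and Tet3, the DNA methyltransferases Dnmt1, Dnmt3a and Dnmt3b, the maintenance factor Uhrf1, the thymine DNA glycosylase Tdg, and the isocitrate dehydrogenases Idh1 and Idh2. These 10 genes were picked by symbol from the 48587 symbols of a count table, and all 10 passed the filter on low counts that kept 16194 genes. The table holds 8 libraries of poly-A RNA from the whole aortic tree of mice, 2 in each of 4 groups. The groups were mice labelled with a Tet2 knockout specific to vascular smooth muscle cells and given VitD (vitamin D), mice with that label given vehicle, wild-type (WT) mice given VitD, and WT mice given vehicle. The series describes the WT mice as litter controls. Not given in the sources used here are the Cre driver, the deleted part of Tet2, the dose, the duration, the age and the number of mice per library. Libraries are named by genotype label, treatment and replicate number, such as Tet2KO VitD 1. The labels do not say that replicates are different mice. P-values of the tests on counts therefore reflect how far the libraries of a group lie apart, an estimate partly shared across genes. Replicates differed by more than the sampling of reads gives (chi-square per degree of freedom of 27.3 to 108). Whether that spread is the spread between mice is not known.

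DNMT3A and DNMT3B place methyl groups on unmethylated CG dinucleotides. DNMT1 copies the pattern onto the new strand during DNA replication, guided by UHRF1, which binds hemimethylated CG. TET enzymes oxidise methylcytosine to hydroxymethylcytosine and further forms, and TDG excises the most oxidised of these so that repair can put back plain cytosine. TET enzymes need alpha-ketoglutarate, which IDH1 makes in the cytosol and IDH2 in mitochondria. In smooth muscle, TET2 is known as a promoter of the contractile state.

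The TET and methyltransferase enzymes act on CG dinucleotides, and the promoters of their own genes differ widely in how many they hold. RefSeq promoter windows (GRCm38.p6, 250 bases before to 50 after a start site) were found for all 10 genes. The Tet2 window is shown because Tet2 is the gene the genotype label names. It lies on the minus strand at chr3:133544341-133544640 and held 57 CG, written in capitals, more than 99.8% of the 32851 windows of the reference, whose median was 7.
Tet2: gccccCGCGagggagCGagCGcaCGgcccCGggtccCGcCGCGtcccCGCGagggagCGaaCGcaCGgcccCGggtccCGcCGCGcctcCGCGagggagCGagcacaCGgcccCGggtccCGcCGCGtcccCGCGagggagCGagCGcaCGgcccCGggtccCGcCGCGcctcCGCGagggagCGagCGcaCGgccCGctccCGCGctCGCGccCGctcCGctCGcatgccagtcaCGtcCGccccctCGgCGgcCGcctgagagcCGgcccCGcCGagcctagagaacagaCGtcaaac
The Tet1 window held 17 CG and the Tet3 window 22. Uhrf1 and Dnmt1 are shown for another motif, that of the E2F factors, which drive genes of DNA replication. It was searched on both strands as TTT, then 2 bases that are each C or G, then CGC. Of the most CG-rich window of each of the 10 genes it stood in 2, those of Uhrf1 and Dnmt1. It stands in the most CG-rich window of 2.39% of all genes and in 2.26% of all windows. The motif itself holds CG, and among the 2812 windows with 33 CG or more its share is 4.27%. The Uhrf1 window is chr17:56304063-56304362 (plus strand) and the Dnmt1 window chr9:20952574-20952873 (minus strand), each with 33 CG, and capitals mark the E2F motif.
Uhrf1: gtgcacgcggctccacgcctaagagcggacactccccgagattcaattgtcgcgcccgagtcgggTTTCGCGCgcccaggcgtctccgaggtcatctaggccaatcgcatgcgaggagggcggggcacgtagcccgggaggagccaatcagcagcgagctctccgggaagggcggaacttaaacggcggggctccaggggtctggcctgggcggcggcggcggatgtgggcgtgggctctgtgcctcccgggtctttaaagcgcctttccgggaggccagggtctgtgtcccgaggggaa
Dnmt1: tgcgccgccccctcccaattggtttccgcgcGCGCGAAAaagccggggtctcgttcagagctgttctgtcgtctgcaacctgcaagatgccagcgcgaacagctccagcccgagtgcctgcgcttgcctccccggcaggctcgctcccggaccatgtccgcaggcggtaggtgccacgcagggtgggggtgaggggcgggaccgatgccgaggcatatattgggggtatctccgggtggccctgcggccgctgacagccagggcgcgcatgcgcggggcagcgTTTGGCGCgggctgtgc
A match of letters is a description of the window and not a bound site.

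The libraries held 15679274 to 22332149 counts, and levels are given as CPM, counts scaled by TMM to a common library size. Several features of the libraries bear on the values below. The library names carry numbers in 2 separate ranges, a lower one (Tet2KO VitD 2 and all 4 vehicle libraries) and a higher one (Tet2KO VitD 1 and both WT VitD libraries), and the labels do not say what the ranges stand for. In WT the range and the treatment cannot be told apart. Contractile smooth muscle genes, the defining markers of the main cell type, were present in every library, with a summed level of 12 genes of 25520 and 34814 CPM in Tet2KO VitD, 38161 and 35340 CPM in Tet2KO vehicle, 27804 and 18662 CPM in WT VitD, and 37385 and 38041 CPM in WT vehicle. Macrophage markers summed to 1065 to 2186 CPM in the 4 VitD libraries and 402 to 674 CPM in the 4 vehicle libraries. Neutrophil markers summed to 30.6 and 57.2 CPM in WT VitD against 4.66 and 1.42 CPM in WT vehicle, and 4 of the 4 tested were called higher. Skeletal muscle markers summed to 73.3 and 330 CPM in WT VitD against 20 and 22.5 CPM in WT vehicle, with 5 of 5 called higher. Of all genes tested, 10.6% were called higher in that comparison. Tet2KO VitD 1 stood apart from Tet2KO VitD 2 in endothelial markers (4357 against 1270 CPM) and brown fat markers (83.3 against 671 CPM). The part of these cell types in the values below was not tested. Genes of T cells and thymocytes summed to 108 CPM in WT vehicle 1 and to at most 35.3 CPM in each other library. In such bulk tissue, fewer cells of a type and less RNA per cell cannot be told apart. With so few libraries in each group, groups often lie apart without any effect. The share of all genes tested whose groups did not overlap was not counted, so a lack of overlap is given below as a description.

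Per kilobase of merged exons the isocitrate dehydrogenases stood far above the enzymes that act on DNA. Idh1 averaged 43.3 CPM per kilobase over the 8 libraries and Idh2 40.1, and their ranges overlapped. Every other gene lay lower in every library: Dnmt1 averaged 5.56, Dnmt3a 4.98 and Tdg 4.54 CPM per kilobase, and these 3 overlapped from neighbour to neighbour. Tet3 followed at 3.65 CPM per kilobase and lay above Tet2, at 1.84, in all 8 libraries without overlap. Uhrf1 had a like mean of 1.79 but by far the widest range, 0.334 to 4.7 CPM per kilobase. Dnmt3b, at 0.661, and Tet1, at 0.531, were lowest. With the length of the longest coding transcript in place of merged exons, Idh2 came before Idh1 and Dnmt3a before Dnmt1, and the other 6 kept their places.

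**Figure D1:**
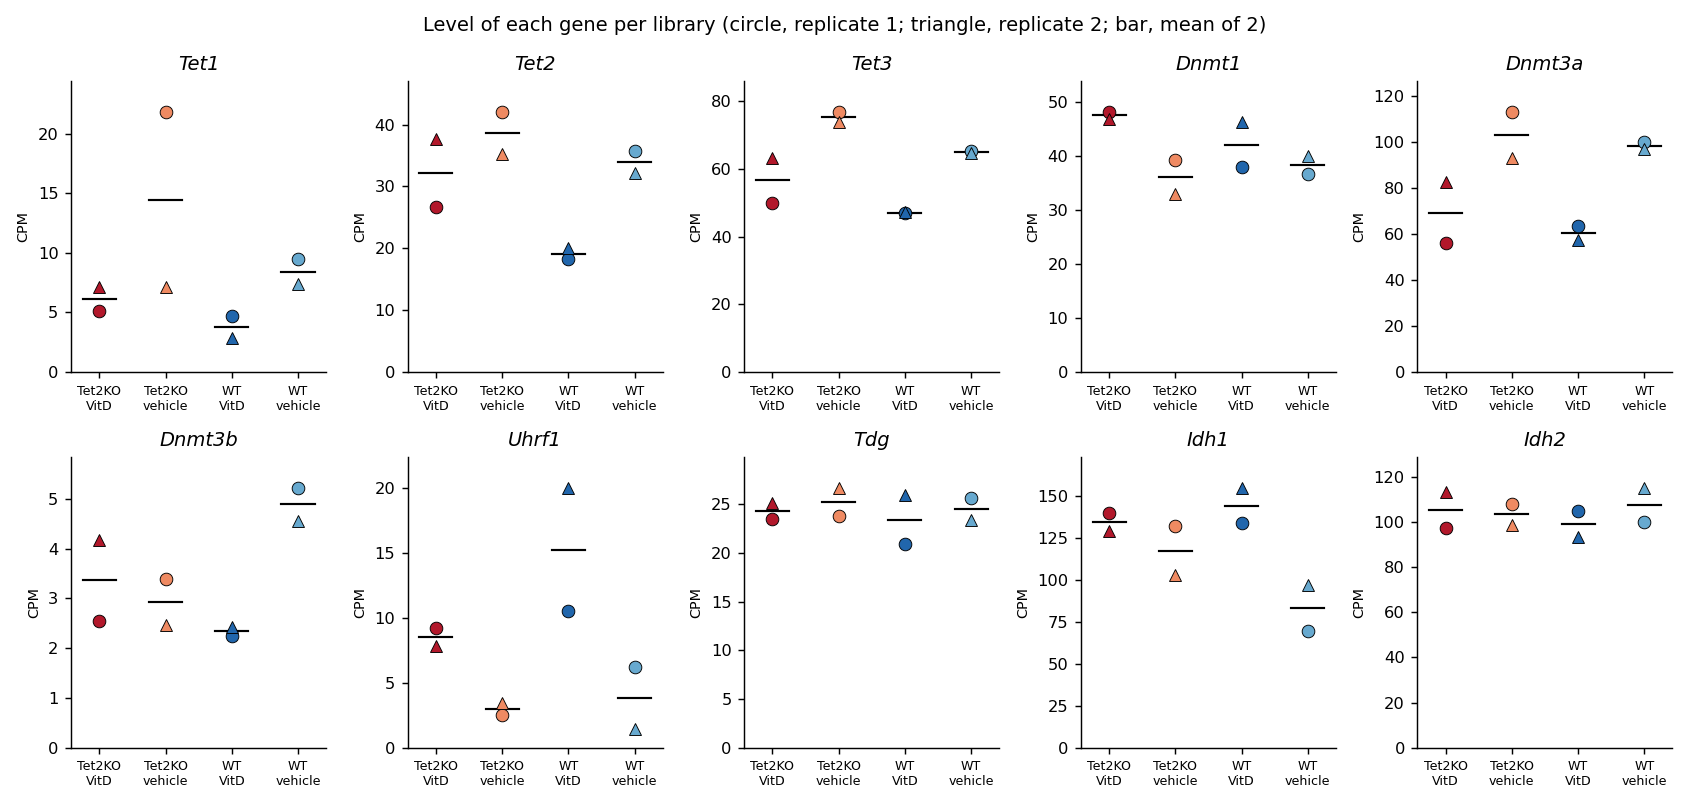
Level of each of the 10 genes in CPM, counts scaled to a common library size (vertical axis, from 0), in the 8 libraries, with a circle for replicate 1, a triangle for replicate 2 and a bar for the mean of 2. Tet2 lies between 18.3 and 20 CPM in WT VitD and at 26.6 CPM or more in every other library, and Tdg (20.9 to 26.7 CPM) and Idh2 (93.1 to 115 CPM) span the narrowest ranges for their level.

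Tet2 (chromosome 3, 133463679 to 133545139, minus strand, mm10) is the gene that the label says was deleted. Under VitD its level was 26.6 and 37.6 CPM in knockout-labelled libraries, while WT had 18.3 and 20 CPM. With vehicle its level was 42 and 35.2 CPM in knockout-labelled libraries, against 35.8 and 32.2 CPM in WT. No knockout-labelled library lay below both WT libraries of its treatment, the groups overlapped with vehicle, and under VitD both knockout-labelled libraries lay above WT. Averaged over the treatments, the log2 fold change of the knockout label against WT was 0.46 (SE 0.149, 95% interval 0.13 to 0.80, unadjusted p = 0.0127, adjusted p = 0.686 by edgeR's quasi-likelihood test). The value stayed above 0 in all alternatives run, at 0.29 (with the length trend of each library removed) to 0.57. Under VitD alone it was 0.74 (SE 0.213, adjusted p = 0.457), and 0.95 (adjusted p = 0.0409) without Tet2KO VitD 1 and 0.47 without Tet2KO VitD 2. Within the higher number range, Tet2KO VitD 1 (26.6 CPM) also lay above both WT VitD libraries. As a share of the summed TET level per kilobase, which no scaling between libraries can change, Tet2 made up 31.5% ± 2.3 in the 4 knockout-labelled libraries and 29.2% ± 2.65 in the 4 WT libraries (SD, n = 4 each). The difference of 2.3 percentage points had an exact two-sided permutation p of 0.257. A count over the whole gene does not see the loss of single exons, and smooth muscle is not the only cell type of an aorta, so the label was checked only in part. Each genotype direction below rests on that label.

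**Figure D2:**
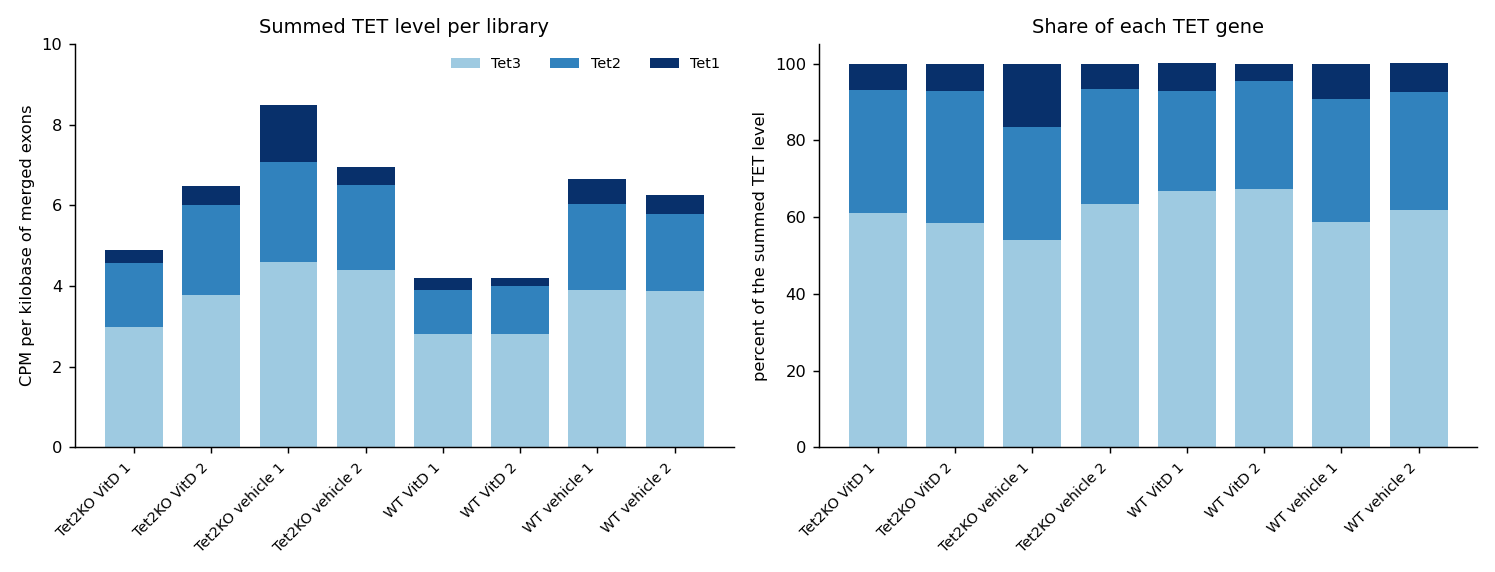
Summed level of Tet3, Tet2 and Tet1 in CPM per kilobase of merged exons (left) and the percent of that sum from each gene (right) in each library. Tet3 makes up 54.1% to 67.2% of the sum and Tet2 25.9% to 34.4%, and the Tet1 share is 16.6% in Tet2KO vehicle 1 and at most 9.26% elsewhere.

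Tet1 and Tet3, the genes that could stand in for Tet2, did not pass the test in any genotype comparison. Tet3 (chromosome 6, minus strand), the most abundant of the family here, had 49.9 and 63.3 CPM in knockout-labelled libraries and 46.9 and 47.1 CPM in WT under VitD. With vehicle it had 76.7 and 73.7 CPM in knockout-labelled libraries and 65.3 and 64.6 CPM in WT. The knockout-labelled libraries lay above WT under both treatments, without overlap. The averaged log2 fold change was 0.24 (SE 0.119, 95% interval -0.03 to 0.51, adjusted p = 0.696 by edgeR). With each library's trend along transcript length removed it was 0.061. Under VitD alone it was 0.27, and -0.0047 with that trend removed. Tet1 (chromosome 10, minus strand), the scarcest of the family, had 5.09 and 7.13 CPM in knockout-labelled libraries and 4.7 and 2.89 CPM in WT under VitD. With vehicle it had 21.8 and 7.15 CPM in knockout-labelled libraries, against 9.51 and 7.35 CPM in WT. The groups overlapped with vehicle, where Tet2KO vehicle 1, with 356 counts, stood far above the rest. The vehicle log2 fold change of 0.78 (SE 0.487, adjusted p = 1 by edgeR) was -0.23 without that library. The averaged value was 0.74 (95% interval -0.06 to 1.54, adjusted p = 0.696), and 0.23 without it.

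Across the other genes the genotype comparisons were as quiet. With vehicle, 0 of the 10 genes and 0% of all genes tested were called by edgeR (481 genes had an unadjusted p under 0.05, 1 of the 10 among them, and DESeq2 called 19 genes). Under VitD edgeR again called 0 of the 10 and 0% of all genes (1719 genes had an unadjusted p under 0.05, 1 of the 10, and DESeq2 called 92). Averaged over treatments it called 0 of the 10 and 0.00618% of all genes (1172 and 1 at an unadjusted p under 0.05, and DESeq2 called 30 genes). DESeq2 called none of the 10 in these 3 comparisons. With vehicle Idh1 lay at 132 and 103 CPM in knockout-labelled libraries and 69.5 and 97.1 CPM in WT, without overlap (log2 0.50, SE 0.219, unadjusted p = 0.0499, adjusted p = 1 by edgeR). Dnmt3b, a de novo methyltransferase, did not overlap either, at 3.38 and 2.46 CPM in knockout-labelled libraries and 5.22 and 4.56 CPM in WT with vehicle (log2 -0.75, SE 0.374, adjusted p = 1). Under VitD the order of Dnmt3b was turned round, at 2.55 and 4.18 CPM in knockout-labelled libraries, with WT at 2.25 and 2.43 CPM (log2 0.53, SE 0.379, adjusted p = 0.585). The interaction of Dnmt3b, the difference between its VitD effects in knockout-labelled libraries and in WT, was 1.27 (SE 0.533, 95% interval 0.07 to 2.48, unadjusted p = 0.0409, adjusted p = 0.794). These rest on 34 to 95 Dnmt3b counts per library. EdgeR's interaction test called 0 of the 10 and 0% of all genes (1006 genes and 1 of the 10 at an unadjusted p under 0.05, 18 genes called by DESeq2).

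In control mice WT VitD was compared with WT vehicle, a comparison in which the treatment and the number range cannot be told apart. Uhrf1 and Idh1 rose, Tet2 and Dnmt3a fell, and the other 6 did not pass the threshold. These 2 higher and 2 lower of 10 stand beside 20.1% of all genes tested that were called here, 10.6% higher and 9.47% lower. The median log2 fold change of the 10 genes was -0.29 and that of all genes tested -0.03. The calls were close to the threshold, and 0 or 1 of the 4 kept it when either WT VitD library or either WT vehicle library was left out. With the number range as covariate 0 of the 4 kept it, but that covariate is estimated from 1 library a side, Tet2KO VitD 1 against Tet2KO VitD 2. It made the SEs 1.26 to 1.69 times as large, so the lost calls alone say little. The log2 fold changes were then 1.77 for Uhrf1, 0.68 for Idh1, -0.33 for Tet2 and -0.15 for Dnmt3a.

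**Figure D3:**
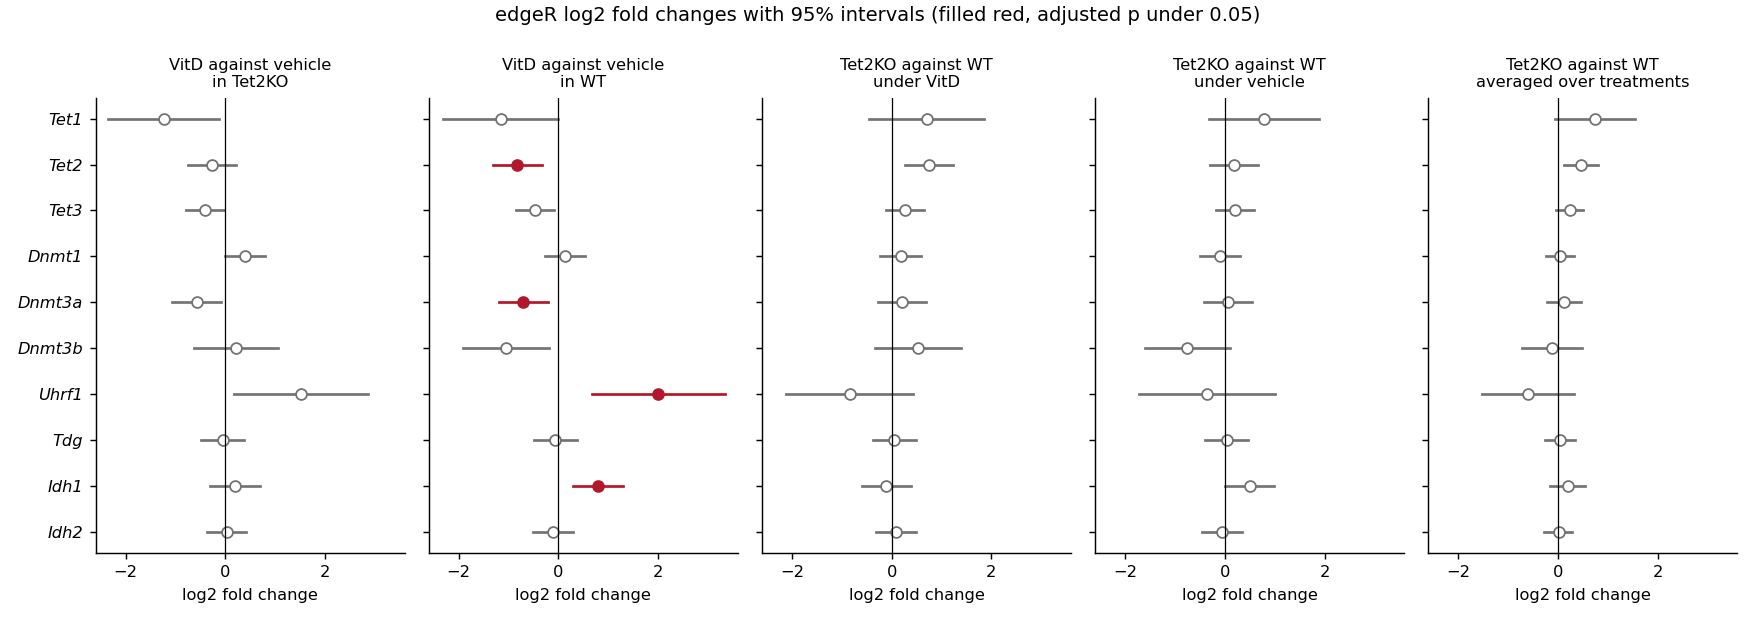
Log2 fold change of each gene (points) with its 95% interval (lines) in 5 comparisons by edgeR. Filled red points have an adjusted p under 0.05: Tet2 (-0.83), Dnmt3a (-0.71), Uhrf1 (2.0) and Idh1 (0.80) for VitD against vehicle in WT, and none in the other 4 panels.

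The TET genes all had lower levels under VitD in WT. Tet2 fell to 18.3 and 20 CPM under VitD, against 35.8 and 32.2 CPM with vehicle (log2 -0.83, SE 0.213, 95% interval -1.31 to -0.34, adjusted p = 0.0305 by edgeR). Tet3 had 46.9 and 47.1 CPM under VitD against 65.3 and 64.6 CPM with vehicle, a narrow and separate pair of values (log2 -0.47, SE 0.169, adjusted p = 0.0797). Tet1 had 4.7 and 2.89 CPM against 9.51 and 7.35 CPM (log2 -1.15, SE 0.508, adjusted p = 0.13). The groups did not overlap for any of the 3, but the share of all genes tested without overlap was not counted. In this comparison 38% of all genes tested had an unadjusted p under 0.05 by edgeR. Summed per kilobase, the TET level was 4.2 in each WT VitD library, against 6.65 and 6.26 CPM per kilobase with vehicle. The TET transcripts are among the longest, with merged exons of 15.5 to 16.9 kilobases, longer than 97.9% to 98.5% of the genes tested. The summed level of contractile smooth muscle genes, given above, was also lower in both WT VitD libraries than in the WT vehicle libraries, and its part in the TET values was not tested. Libraries also differed in how level went with length. The rank correlation across genes between length and a library's deviation was -0.29 and -0.199 in WT VitD against 0.202 and -0.0359 in WT vehicle, a description over genes that are not independent. With that trend removed, the log2 fold change was -0.47 for Tet2 (adjusted p = 0.133), -0.12 for Tet3 and -0.81 for Tet1. A covariate for the number range gave -0.33 for Tet2 (adjusted p = 0.746), -0.12 for Tet3 and -0.67 for Tet1. Over all alternatives the adjusted p of Tet2 ranged from 0.00933 to 0.746.

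Among knockout-labelled libraries the TET genes did not pass the test for VitD. None of the 10 genes did, by edgeR, beside 0.198% of all genes tested (32 genes, 0.179% higher and 0.0185% lower). At an unadjusted p under 0.05 there were 4 of the 10 and 2148 genes in all, and DESeq2 also called 0 of the 10. Tet3 gave a log2 value of -0.41 (SE 0.169, 95% interval -0.79 to -0.026, adjusted p = 0.351 by edgeR), near its WT value, and its VitD libraries lay below its vehicle libraries. The Tet3 value was -0.24 without Tet2KO VitD 1. The Tet1 value was -1.24 (SE 0.492, adjusted p = 0.336), and it rested on Tet2KO vehicle 1 (21.8 CPM): it was -0.22 without that library and -1.83 without Tet2KO vehicle 2. That of Tet2 was -0.26 (SE 0.209, 95% interval -0.74 to 0.21, adjusted p = 0.578) and its groups overlapped. The interaction of Tet2 was 0.56 (SE 0.298, adjusted p = 0.807), so a difference between the genotype labels in the Tet2 response was not shown. Tet2KO VitD 2 is the one VitD library that shares the number range of the vehicle libraries. Its Tet2 level of 37.6 CPM lay between those of the Tet2KO vehicle libraries, 42 and 35.2 CPM, and its Tet3 level of 63.3 CPM lay below theirs, 76.7 and 73.7 CPM.

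The methyltransferases went different ways. Dnmt3a (chromosome 12, plus strand) fell in WT to 63.3 and 57.4 CPM under VitD, against 100 and 96.8 CPM with vehicle (log2 -0.71, SE 0.215, 95% interval -1.19 to -0.22, adjusted p = 0.0481 by edgeR). Its 2 groups were well apart, but the call was at the edge of the threshold and was lost with DESeq2 size factors (adjusted p = 0.0509). Dnmt3a is also a long transcript, and its log2 fold change was -0.36 (adjusted p = 0.249) with the length trend removed. A covariate for the number range gave -0.15 (adjusted p = 0.892). Among knockout-labelled libraries it had 56 and 82.6 CPM under VitD against 113 and 93.1 CPM with vehicle (log2 -0.57, SE 0.214, adjusted p = 0.311), again without overlap. That value was -0.88 (adjusted p = 0.0296) without Tet2KO VitD 2 and -0.31 without Tet2KO VitD 1. Dnmt3b had 2.25 and 2.43 CPM under VitD against 5.22 and 4.56 CPM with vehicle in WT (log2 -1.06, SE 0.379, adjusted p = 0.0772). Its knockout-labelled groups overlapped (log2 0.21, SE 0.375, adjusted p = 0.81). Dnmt1, the copying enzyme, had 37.9 and 46.2 CPM under VitD against 36.7 and 40 CPM with vehicle in WT (log2 0.13, 95% interval -0.27 to 0.54, adjusted p = 0.611). Among knockout-labelled libraries it had 48.1 and 46.9 CPM against 39.2 and 32.9 CPM, without overlap (log2 0.40, 95% interval -0.0052 to 0.80, adjusted p = 0.383).

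The balance between copying and de novo enzymes was therefore set out within each library. Of the summed level of the 3 methyltransferases per kilobase, Dnmt1 made up 62.8% and 52.4% in Tet2KO VitD and 41.6% and 42.4% in Tet2KO vehicle. It made up 54.7% and 61.5% in WT VitD and 41.3% and 44.7% in WT vehicle. Each VitD library lay above each vehicle library in both genotypes. Tet2KO VitD 2, the only VitD library in the lower number range, had the lowest share of the VitD libraries. A single library cannot tell the range from the treatment, and the part of the range was not tested. Over the 4 libraries of each treatment the share was 57.8% ± 5.08 under VitD and 42.5% ± 1.55 with vehicle (SD, n = 4 each), a difference of 15.3 percentage points. The exact two-sided permutation p was 0.0286, the smallest that 70 regroupings allow, and 0.0571 after Benjamini-Hochberg adjustment over the 2 shares tested, which does not pass 0.05. Regrouped within genotype only, p was 0.0556, also the smallest that such regroupings allow, so it could not have passed 0.05. The share was chosen for testing after its values were seen, and full separation of the treatments fixes p at its smallest. This p-value therefore adds nothing to the order of the libraries. The adjustment does not count other shares that could have been picked. Dnmt3a transcripts are longer than those of Dnmt1, and the share is not given with the length trend removed.

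Uhrf1 (chromosome 17, 56303321 to 56323486, plus strand) had the largest change of the 10. In WT it rose to 10.5 and 20 CPM under VitD, against 6.22 and 1.42 CPM with vehicle (log2 2.0, SE 0.588, 95% interval 0.67 to 3.34, adjusted p = 0.044 by edgeR). The groups did not overlap, but both were wide: the vehicle libraries alone differed by more than WT vehicle 1 differed from WT VitD 1. Without WT vehicle 1 the log2 fold change was 3.42, and without WT vehicle 2 it was 1.30 (adjusted p = 0.112). WT vehicle 1 is also the library in which genes of T cells and thymocytes were highest, with Rag1, the thymocyte recombinase, at 37.4 CPM and at most 10.1 CPM in any other, and the part of this in the Uhrf1 level was not tested. With the knockout label Uhrf1 had 9.25 and 7.83 CPM under VitD against 2.52 and 3.41 CPM with vehicle, with tight groups and no overlap (log2 1.52, SE 0.591, 95% interval 0.18 to 2.86, adjusted p = 0.327). Tet2KO VitD 2, in the number range of the vehicle libraries, stood above both Tet2KO vehicle libraries and below the other VitD libraries. A single library cannot tell the range from the treatment. Under VitD the knockout-labelled libraries lay below WT (log2 -0.84, SE 0.56, adjusted p = 0.558).

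**Figure D4:**
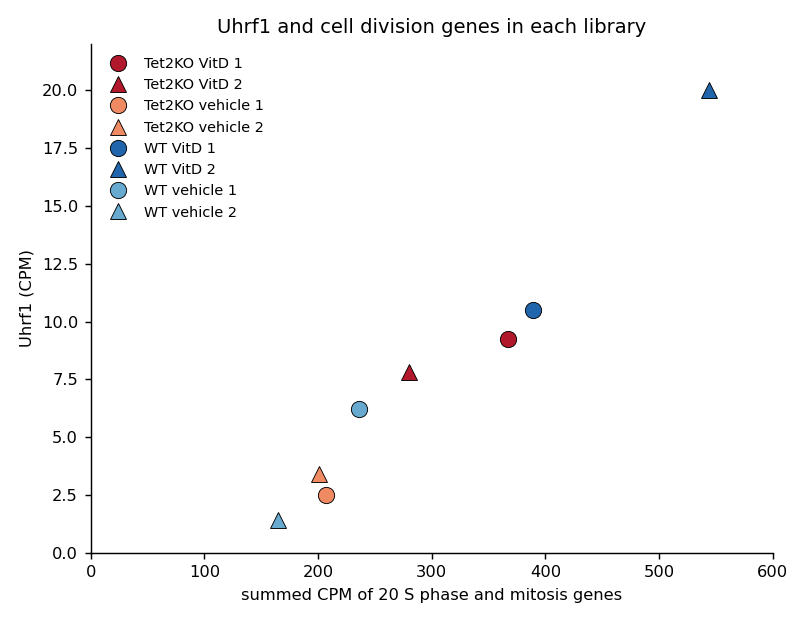
Uhrf1 level (CPM, vertical axis) against the summed CPM of 20 S phase and mitosis genes (horizontal axis) in each library. The library with the most of both is WT VitD 2 (544 and 20 CPM), and the one with the least of both is WT vehicle 2 (165 and 1.42 CPM).

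The level of Uhrf1 moved with genes of cell division. A list of 20 S phase and mitosis genes summed to 367 and 280 CPM in Tet2KO VitD and to 207 and 201 CPM in Tet2KO vehicle. The sum was 389 and 544 CPM in WT VitD and 236 and 165 CPM in WT vehicle. The order of the libraries by Uhrf1 was the order by this sum, apart from the Tet2KO vehicle libraries, whose sums were almost equal. In WT, 17 of the 20 were called higher and 0 lower by edgeR, beside 10.6% of all genes called higher, with a median log2 of 1.94. With the knockout label edgeR called 0, beside 0.198% of all genes tested (DESeq2 called 2), with a median of 0.78. At an unadjusted p under 0.05 by edgeR there were 11 of the 20, beside 13.3% of all genes tested. In the interaction edgeR and DESeq2 each called 0 of the 20 (5 had an unadjusted p under 0.05 by edgeR, beside 6.21% of all genes tested). A difference between the genotype labels in these genes was thus not shown. Among 11083 genes averaging 5 CPM or more, the 5 whose pattern over the 8 libraries was most like that of Uhrf1 were Bub1b, Ube2c, Mki67, Top2a and Ccna2, all of which act in mitosis or DNA replication. Their root mean square difference from Uhrf1 in centred log2 CPM was 0.156 to 0.301, against a median of 1.15 over all these genes. Bub1b, a kinase of the mitotic checkpoint, had 7.52 and 5.37 CPM in Tet2KO VitD, 1.66 and 2.46 CPM in Tet2KO vehicle, 7.28 and 12.1 CPM in WT VitD, and 3.42 and 0.968 CPM in WT vehicle. Mki67, Top2a and Ccna2 are themselves on the list summed here. Dnmt1, which shares the E2F motif in its promoter window, spanned 32.9 to 48.1 CPM over the 8 libraries, a highest level 1.46 times the lowest, while that of Uhrf1 was 14.1 times the lowest.

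The TET genes had other neighbours. By the same measure Gpatch8, Baz2a, Dnmbp, Fnbp4 and Parp4 were most like Tet2, at 0.0545 to 0.0925 against a median of 0.473. Gpatch8 had 48.4 and 64.7 CPM in Tet2KO VitD, 71.4 and 65.8 CPM in Tet2KO vehicle, 32.3 and 34.9 CPM in WT VitD, and 65.5 and 61.2 CPM in WT vehicle. Slc8a1, Edrf1, R3hdm2 and Svil were among the genes most like Tet3, at 0.0435 to 0.0746 against a median of 0.364. Slc8a1, a sodium-calcium exchanger, had 25.2 and 30.9 CPM in Tet2KO VitD, 38 and 33.8 CPM in Tet2KO vehicle, 23 and 23.6 CPM in WT VitD, and 33.3 and 32 CPM in WT vehicle. For Tet1 they were the serotonin receptor Htr2a, RP23-47G19.5, the calcium channel subunit Cacnb2, Dhtkd1 and Agbl5, at 0.264 to 0.318 against a median of 0.813. Htr2a shared the high value in Tet2KO vehicle 1, 16.8 CPM against 8.43 CPM in Tet2KO vehicle 2. All 8 libraries enter each of these distances, with their treatment, number range and depth, so likeness here is a description.

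Idh1 and Idh2, the suppliers of alpha-ketoglutarate, differed from each other. Idh1 (chromosome 1, minus strand) rose in WT to 134 and 155 CPM under VitD, against 69.5 and 97.1 CPM with vehicle (log2 0.80, SE 0.219, 95% interval 0.30 to 1.29, adjusted p = 0.0369 by edgeR). Both VitD libraries were above both vehicle libraries. The log2 fold change was 0.58 (adjusted p = 0.173) without WT vehicle 1 and 1.06 (adjusted p = 0.0538) without WT vehicle 2, and 0.68 when the number range was a covariate (adjusted p = 0.585). With the length trend removed the call was kept, as that of Uhrf1 was. With the knockout label Idh1 had 140 and 129 CPM under VitD against 132 and 103 CPM with vehicle, and the groups overlapped (log2 0.20, SE 0.218, adjusted p = 0.692). The interaction was -0.60 (SE 0.308, 95% interval -1.30 to 0.10, adjusted p = 0.803). Idh2 (chromosome 7, minus strand) lay between 93.1 and 115 CPM in all 8 libraries, and its log2 fold changes over the 6 comparisons lay between -0.11 and 0.14 (smallest unadjusted p = 0.542). Of the summed level of both genes per kilobase, Idh1 made up 57.3% and 51.7% in Tet2KO VitD and 53.4% and 49.3% in Tet2KO vehicle, and 54.3% and 60.9% in WT VitD and 39.4% and 44.2% in WT vehicle. The 2 WT vehicle libraries were thus the low ones. Tdg (chromosome 10, plus strand), the glycosylase, was as even, at 20.9 to 26.7 CPM, with log2 fold changes of -0.06 to 0.05 over the 6 comparisons. Its merged exons share 367 bases with Glt8d2 on the opposite strand, and whether reads were counted by strand is not stated in the sources used here.

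**Figure D5:**
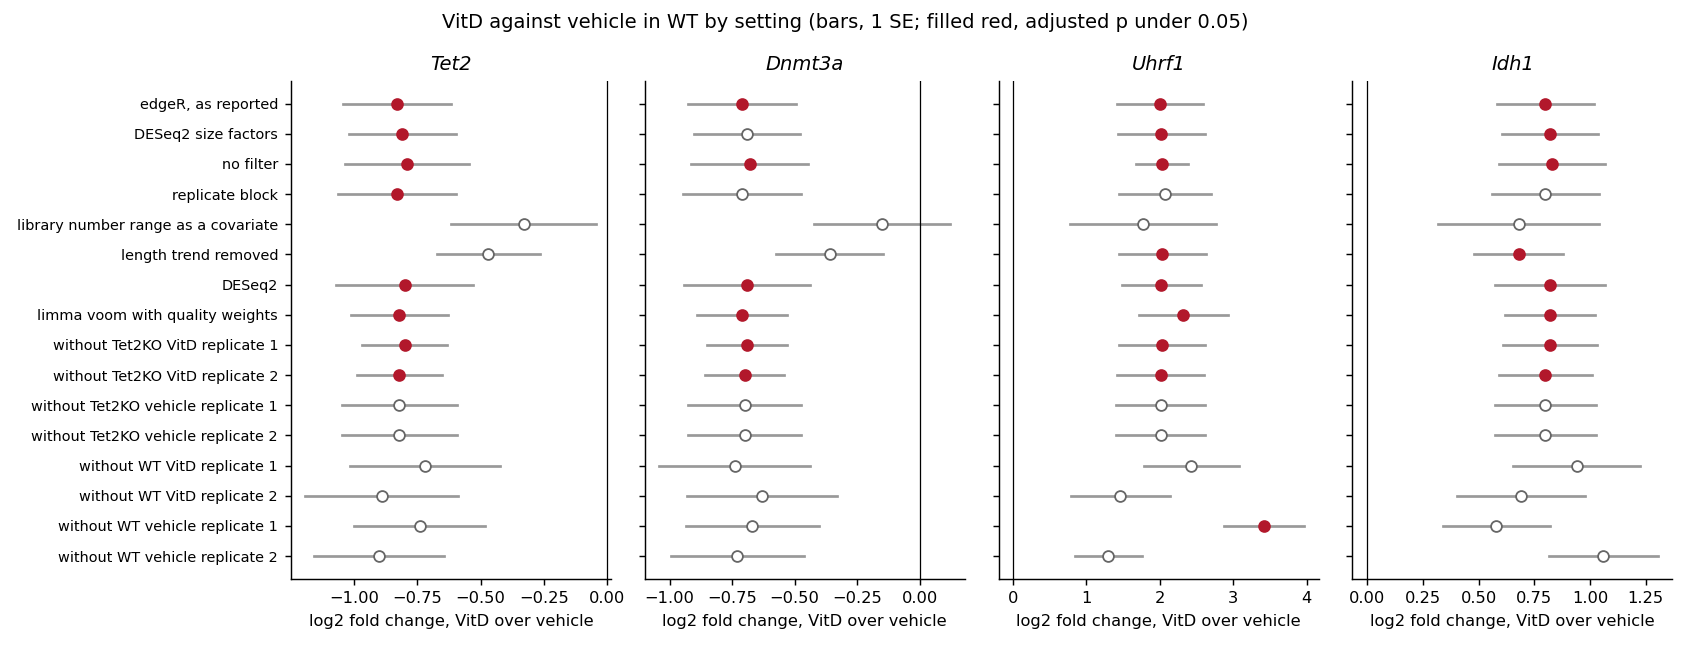
Log2 fold change (points) with 1 SE (lines) of Tet2, Dnmt3a, Uhrf1 and Idh1 for VitD against vehicle in WT under each setting, filled red where the adjusted p is under 0.05. All points keep the sign of the reported value, and those of Tet2 and Dnmt3a are nearest to 0 when the number range is a covariate (-0.33 and -0.15) and with the length trend removed (-0.47 and -0.36).

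The partners and substrates of these enzymes were read from 6 lists of 85 distinct genes. In WT, 10 were called higher and 10 lower under VitD, 23.5% of the 85 beside 20.1% of all genes tested. For VitD with the knockout label edgeR called 0 of them and DESeq2 called 1. At an unadjusted p under 0.05 by edgeR there were 14 of the 85, beside 13.3% of all genes tested. Both tools called 0 of them in the interaction and in each of the 3 genotype comparisons. At an unadjusted p under 0.05 by edgeR, genotype with vehicle had 1 of the 85, beside 2.97% of all genes tested. Genotype under VitD had 20 of the 85 beside 10.6% of all genes, and averaged over treatments 12 beside 7.24%. The interaction had 5 beside 6.21%. Of the 20 called in WT, 14 kept their call with the length trend removed, 13 with a replicate block, and 1 to 5 when a WT library was left out. With the number range as covariate, which rests on that 1 pair of libraries, 20 of 20 kept their direction and 0 their call, with SEs 1.01 to 1.73 times as large. Of all genes tested, 10.6% were called higher in WT and 9.47% lower. A list of readers of methylated CG and genes grouped with them by family had 4 of 11 called lower and 0 higher (median log2 -0.04). Mbd5 (-0.93) and Mbd6 (-1.14), among those called, are on it by family and are not taken here to bind methylated CG. They and Zbtb38 (-0.69) lost the call with the length trend removed (adjusted p from 0.0511 to 0.14 by edgeR). Without WT vehicle 1 the Mbd5 value was -0.60. Cofactors of methylation had 3 of 12 called higher and 1 lower (median 0.81). Lig1, the ligase of DNA replication, rose to 20.1 and 26.2 CPM under VitD in WT, against 7.33 and 9.63 CPM with vehicle (log2 1.44, SE 0.251, adjusted p = 0.0115 by edgeR). Pclaf, a partner of the replication clamp PCNA (log2 2.42), and Cdca7l (2.09) rose too, and the histone methyltransferase Setdb1 fell (-0.94). The Pclaf value was 4.41 without WT vehicle 1 and 1.60 without WT vehicle 2, and that of Cdca7l was 1.48 without WT VitD 2. Lig1 and Pclaf are also genes of DNA replication.

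The counts called in WT that follow stand beside 10.6% of all genes tested called higher and 9.47% lower. Downstream of TDG, 2 of 15 genes of base excision and its helpers were called higher and 0 lower (median 0.19). They were the glycosylase Neil3 (log2 2.24) and Gadd45a (1.59), which is known to take part in active demethylation and in the response to DNA damage. Gadd45a lost the call with the length trend removed (log2 1.36, adjusted p = 0.0583 by edgeR). Neil3, with 6 to 80 counts per library, had a value of 1.56 without WT VitD 2 and 3.25 without WT vehicle 1. Among 11 partners of TET proteins 1 was called higher and 2 lower (median -0.51). Ogt, the O-GlcNAc transferase that binds TET2 and TET3, fell to 132 and 129 CPM under VitD in WT, against 310 and 229 CPM with vehicle (log2 -1.04, SE 0.214, adjusted p = 0.0169 by edgeR). It had 172 and 216 CPM under VitD against 277 and 280 CPM with vehicle in knockout-labelled libraries (log2 -0.52, adjusted p = 0.341). The transcription factor Ebf1 also fell (-1.04), and it lost the call with the length trend removed (-0.80, adjusted p = 0.0513 by edgeR). Wt1, a factor that can recruit TET2, rose (1.97), but it is a gene of mesothelium as well, and its value was 1.32 without WT VitD 2. Mesothelial markers summed to 82.1 and 179 CPM in WT VitD against 31.3 and 29.3 CPM in WT vehicle, and their part in the Wt1 value was not tested.

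Among 21 genes of alpha-ketoglutarate and of the metabolites that inhibit TET enzymes, 3 were called higher and 1 lower in WT (median 0.05). This count, like that of the methyl donor cycle below, stands beside 10.6% of all genes tested called higher and 9.47% lower. Psat1, the aminotransferase of serine synthesis that yields alpha-ketoglutarate, rose to 37.5 and 45 CPM under VitD, against 12.3 and 10.4 CPM with vehicle (log2 1.86, SE 0.239, adjusted p = 0.00441 by edgeR). Knockout-labelled libraries had 30.7 and 21 CPM against 8.78 and 9.1 CPM, without overlap and just outside the threshold (log2 1.53, SE 0.239, adjusted p = 0.0524). The aminotransferases Bcat1 (1.80) and Got1 (0.89) rose as well, with Bcat1 at 1.03 (adjusted p = 0.233) without WT VitD 2, where it had 19.9 CPM against 8.21 CPM in WT VitD 1. D2hgdh, which removes the TET inhibitor hydroxyglutarate, fell to 4.83 and 3.91 CPM under VitD, against 11.4 and 14.6 CPM with vehicle (log2 -1.58, SE 0.334, adjusted p = 0.0187). In the methyl donor cycle 1 of 16 was called higher and 2 lower (median -0.30). Nnmt, which uses S-adenosylmethionine to methylate nicotinamide, rose (1.36), while Mat2a (-0.81), which makes S-adenosylmethionine, fell. None of these lists was tested as a set.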

How the data were processed

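The authors deposited raw read counts per gene symbol, 1 column per library. Per the submitters' processing notes the tools were Trimmomatic 0.39, STAR 2.7.8a and featureCounts 2.0.2 with mm10. The labels' protocols give TRIZOL extraction with a poly-A stranded TruSeq kit. Annotation, strand setting and handling of multi-mapped reads were not stated in the sources used here.

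Counts of all 8 libraries were fitted with edgeR 4.0.16 in R 4.3.3 (TMM, filterByExpr, quasi-likelihood, 1 mean per group, 4 residual degrees of freedom). P-values were adjusted by Benjamini-Hochberg over 16194 genes with a threshold of 0.05. Log2 fold changes carry standard errors (SE) and 95% intervals from the F statistic. Levels per kilobase used merged exons of GENCODE M21 (mm10), where 95.5% of symbols had 1 length. Dcaf1 and Pclaf were read under older symbols.

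The 10 genes and all lists were chosen with earlier results of these data known. All 10 were named. Of each pathway list, called genes (at most 4) or else the 2 of smallest p could be named. Values of a few genes this rule or the likeness measure would name are not reported here. Alternatives were DESeq2 1.42.0 or its size factors, limma 3.58.1 voom with quality weights, no filter, a replicate block, the number range, removal of length trends, and leaving out each library. Also tried, after seeing the data, were the longest coding transcript as length and the permutation tests of shares. The procedure was also run on simulated counts that held no number range, length trend or difference in cell types. That run says nothing about those features, and its outcome is not reported here.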

Additional observations from a re-analysis of the deposited data

How the results depend on the processing

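Over 60 effects (10 genes, 6 comparisons) and 900 values under alternatives, 70 values had the other sign, in 28 effects, 24 of which were under 0.3 on the log2 scale in the report's fit. The 4 called effects were not among them. Of the effects printed in the report, VitD in WT gave -0.013 to 0.31 for Dnmt1 and -0.22 to 0.13 for Tdg when single libraries were left out. With the number range as covariate Tdg gave 0.028 and Idh2 0.10, and with the length trend removed Tdg gave 0.037. Left-out libraries gave -0.19 to 0.53 for VitD on Dnmt3b with the knockout label, -0.23 to 1.38 for genotype with vehicle on Tet1, and -0.13 to 0.21 for genotype under VitD on Tdg. They gave -0.95 to 0.11 for the averaged genotype effect on Uhrf1. Genotype under VitD was -0.0047 for Tet3 and -0.026 for Tdg with the length trend removed. The causes were not tested. Of the 10 genes, 4 were called for VitD in WT. The number was 0 to 6 with single libraries left out, 2 with the length trend removed, 0 when the number range was a covariate and 1 with a replicate block. In the libraries labelled knockout it was 0, with 2 without a filter and 0 to 1 when libraries were left out, and the genotype effect under VitD had 0 to 1. Leaving out a library also removes residual degrees of freedom. That includes a Tet2KO vehicle library, without which all 4 WT calls were lost at nearly the same fold changes.

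Counts over all genes moved more. For VitD in WT 3251 became 58 when the number range was a covariate and 140 to 4946 without single libraries. For VitD in the libraries labelled knockout 32 became 1225 without a filter, 20 with the number range, 461 by DESeq2, 8 by limma voom and 0 to 1898 without single libraries. For genotype with vehicle 0 became 164 without a filter and 19 by DESeq2, and under VitD 0 became 610, 92 by DESeq2, 16 with the number range and 0 to 674 without single libraries. Averaged over treatments 1 became 304, 30 by DESeq2, 12 with the number range, 0 by limma voom and 0 to 12 without single libraries. The interaction count of 0 became 403, 18 by DESeq2, 7 with the number range and 0 to 37 without single libraries.

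The replicate numbers did not pair libraries: correlations across genes of replicate 1 minus replicate 2 between groups lay between -0.115 and 0.138. With the replicate block, Idh1 (adjusted p = 0.0543), Uhrf1 (0.0567) and Dnmt3a (0.0712) passed the threshold no longer in WT. Depth limits Dnmt3b, with 34 to 95 counts per library, Uhrf1 with 25 to 354 and Tet1 with 51 to 356.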
